A study of Arabidopsis thaliana with 9 samples.

Results

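The comparison set myb30 seedlings of Arabidopsis thaliana, which carry a mutation in the transcription factor gene MYB30, against Col wild-type seedlings across the whole transcriptome. Members were every gene row of the authors' deposited comparison table whose average level lay above the lowest value of that column, which kept 25713 of 33977 gene rows. The other 8264 rows sat at the floor of the level column and were not tested.

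Both genotypes were of the Col ecotype, were raised on MS plates in continuous white light and were harvested whole at 4 days. Each was sequenced as 3 RNA libraries, 6 in this comparison and 9 in the series, the remaining 3 being MYB30-OE seedlings, an overexpressor. The labels give neither the kind of mutation in myb30 nor the promoter of the overexpressor. They do not say that libraries of a genotype came from separately grown plates. The p-values thus speak at most for these libraries, and the test behind them is not given. The table holds no values of single libraries: each gene has a log2 fold change, an average level as log2 CPM (reads scaled to a common library size) and a p-value. Levels per genotype were worked back from those columns and are called implied CPM. An SD per genotype could therefore not be given, and precision is given as an approximate standard error (SE) of the log2 fold change, worked back from the p-value. Fold changes below are myb30 over Col, as in the authors' deposited table. "Rose" and "fell" are used of genes whose Benjamini-Hochberg adjusted p over all 25713 genes was under 0.05.

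MYB30 encodes an R2R3 MYB transcription factor. It is known from Arabidopsis for promoting very-long-chain fatty acid synthesis during the hypersensitive response to bacteria, for working with the brassinosteroid factor BES1, and for a part in seedling light responses. A seedling of this age is leaving its seed stage: it burns stored oil and protein, greens its cotyledons, and starts to take up minerals through its root and root hairs.

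MYB30 itself fell 7.07-fold, with 4.55 CPM in myb30 and 32.2 CPM in Col (-2.82 ± 0.16 on the log2 scale, with an adjusted p of 6.84e-66 from the authors' p-values). The mutant thus kept 14.1% of the Col level. The gene lies at chr3:10911157-10913190 (TAIR10), with 1592 bases of exon. The columns do not name their direction, and the sign used here was the one that makes MYB30 lower in myb30. Read the same way, the authors' deposited table for MYB30-OE against Col put MYB30 higher in MYB30-OE (log2 fold change 4.28). Of the 5 MYB factors of the same subgroup, MYB96, a regulator of cuticular wax, rose to 19.5 CPM in myb30, against 9.66 CPM in Col. MYB94 (12.2 CPM in myb30 and 9.74 CPM in Col), MYB60 and MYB31 did not pass. Among 9 genes for proteins known to bind or modify MYB30, BES1 fell (82.9 CPM in myb30 and 120 CPM in Col), as did PIF5 and MIEL1, the ubiquitin ligase that targets MYB30. The photoreceptor genes PHYA and PHYB and the SUMO ligase gene SIZ1 did not pass.

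In the authors' deposited table, 5536 genes passed, 21.5% of those tested. Of these, 2776 were higher in myb30 (10.8% of tested genes) and 2760 were lower (10.7%). These shares are the background for every list count below, and a count near them shows nothing particular to the list. Most differences were small: 76.0% of the calls were under 2-fold, and 718 genes rose and 612 fell by at least 2-fold. Large changes were mostly rises, with 261 genes up and 146 down by at least 4-fold. The median log2 fold change over all tested genes was 0.01. Genes that rose took 24.3% of the implied reads in myb30 and 17.0% in Col, and genes that fell took 21.3% in myb30 and 32.5% in Col.

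**Figure D1:**
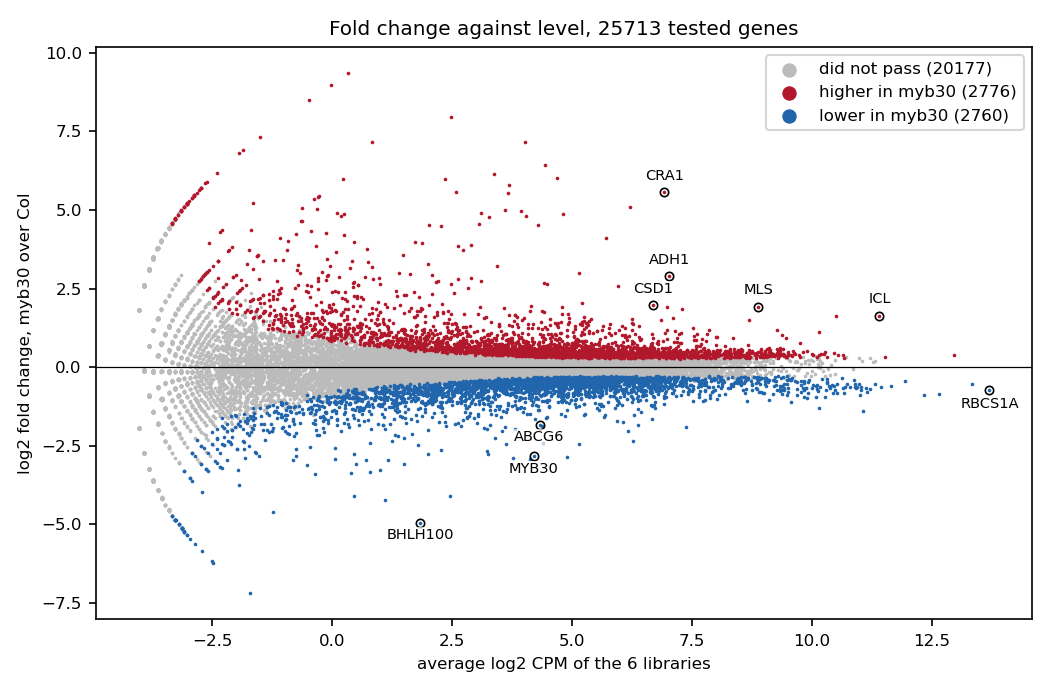
Each point is a tested gene, with the average log2 CPM of the 6 libraries on the x axis and the log2 fold change of myb30 over Col on the y axis. The 2776 red genes were higher in myb30, the 2760 blue genes were lower and the 20177 grey genes did not pass, and the largest rises reach further from 0 than the largest falls.

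The implied mean library held about 36500000 reads in myb30 and 33900000 in Col. Precision and the share of genes called differed by average level. Below an average of -2 on the log2 CPM scale the median approximate SE was 1.42, 3.71% of genes passed and the smallest call was 2.85-fold. Between 4 and 6 it was 0.13, 26.7% passed and calls reached down to 1.22-fold. Of the 94 genes at 10 or above, 71.3% passed, 18.1% being higher in myb30 and 53.2% lower. Between 8 and 10, 32.9% of genes were higher and 25.1% were lower. Counts for lists of abundant transcripts are read against these shares. Calls also differed by transcript length: of genes that averaged 1 CPM or more and had under 800 bases of exon, 22.6% rose and 14.95% fell, while of those with 2500 bases or more 5.48% rose and 12.5% fell. The part of transcript length in the results was not tested.

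**Figure D2:**
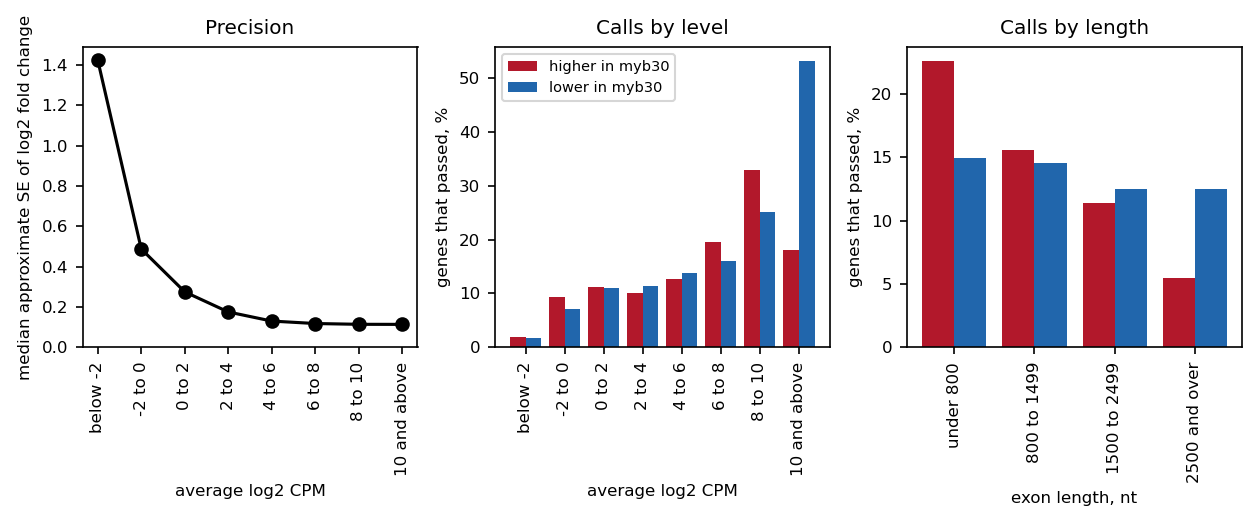
The left panel plots the median approximate SE of the log2 fold change by average log2 CPM, which declines to 0.11 in the most abundant genes. The middle and right panels plot the percentage of tested genes that were higher (red) or lower (blue) in myb30, by average log2 CPM and by exon length in nucleotides, with higher calls most frequent in the shortest genes.

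Seed genes were prominent among the largest rises. The 20 largest by fold were taken among genes averaging 1 CPM or more with at least 1 implied read in each genotype. This left out AT3G63040, which had no implied read in Col (9.35 on the log2 scale). The first 3 were MEE26 (7.96, with 11.0 CPM in myb30 and 0.0406 CPM in Col), AT2G01422 (7.16) and AOP3 (7.15). MEE26 is annotated as a hydroxyproline-rich glycoprotein, AT2G01422 is an RNA gene and AOP3 a dioxygenase gene. The storage protein gene CRU2 followed at 6.42, and CRA1, another cruciferin, stood at 238 CPM in myb30 and 5.05 CPM in Col. These rises were not particular to myb30. The log2 fold change of MYB30-OE over Col was 4.48 for MEE26, 7.08 for AT2G01422, 4.16 for CRU2 and 3.06 for CRA1. Of the 20 largest rises, AT4G30880 alone had a negative value there (-0.43), and AOP3 (3.63) did not pass there. All 10 tested genes for proteins of oil bodies, the oil droplets of seeds, were higher in myb30, with a median log2 fold change of 4.53 against 0.01 over all genes. Among the oleosins, which coat these droplets, OLEO2 stood at 31.7 CPM in myb30 and 1.13 CPM in Col (4.81 ± 0.25, an adjusted p of 7.88e-76) and OLEO1 at 29.4 CPM in myb30 and 0.929 CPM in Col (4.98 ± 0.40). The caleosin CLO1 reached 7.70 CPM in myb30, against 0.335 CPM in Col. The oil body list summed to 172 CPM in myb30 and 34.7 CPM in Col. Fewer cells of a type and less RNA per cell cannot be told apart in whole seedlings, here or in any list below.

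Of 17 regulators of seed maturation, 7 rose and 1 fell. The B3 factor ABI3, a master regulator of seed maturation, rose to 10.6 CPM in myb30, against 1.51 CPM in Col (2.82 ± 0.24), and its relative FUS3 to 1.31 CPM in myb30, against 0.0622 CPM in Col. ABI4, an AP2-type factor of abscisic acid signalling, stood at 5.36 CPM in myb30 and 0.682 CPM in Col. L1L, a subunit of a CCAAT-binding complex, and the bZIP factors BZIP67 and EEL rose as well. BZIP53 fell slightly, with 51.7 CPM in myb30 and 63.9 CPM in Col. PKL and VAL2, which repress embryo genes after germination, did not pass: PKL had 99.9 CPM in myb30 and 106 CPM in Col. The median of the list was 0.98, but -0.10 over those that averaged 1 CPM or more and 0.07 after adding 1 CPM to each level.

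The promoters of seed genes are often read for the RY element, CATGCATG, the letters bound by B3 factors of the ABI3 type, and for the G-box CACGTG, bound by bZIP and bHLH factors. Stretches of 250 bases just before the start of OLEO1 (chr4:12900180-12900429, plus strand), the albumin gene SESA3 (chr4:13611546-13611795, plus strand) and the cupin gene PAP85 (chr3:8013903-8014152, minus strand) are shown as examples of large rises that carry these motifs; most of the 20 largest rises carry neither, with the RY element in 3 and the G-box in 5 of their RefSeq promoters. Starts and TAIR10 coordinates are those of the deposited annotation, the letters are from the RefSeq TAIR10.1 genome, and capitals mark matches to the motifs searched, on either strand.
OLEO1: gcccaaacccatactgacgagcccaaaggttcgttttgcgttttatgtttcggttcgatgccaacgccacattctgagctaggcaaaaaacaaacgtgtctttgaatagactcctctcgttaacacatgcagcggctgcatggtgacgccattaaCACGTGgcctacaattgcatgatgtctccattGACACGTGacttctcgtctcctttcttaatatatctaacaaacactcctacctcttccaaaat
SESA3: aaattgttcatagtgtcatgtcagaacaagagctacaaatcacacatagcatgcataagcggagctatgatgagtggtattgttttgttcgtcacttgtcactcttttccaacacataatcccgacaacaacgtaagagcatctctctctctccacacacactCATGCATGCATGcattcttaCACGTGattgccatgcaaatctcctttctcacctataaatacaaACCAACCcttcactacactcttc
PAP85: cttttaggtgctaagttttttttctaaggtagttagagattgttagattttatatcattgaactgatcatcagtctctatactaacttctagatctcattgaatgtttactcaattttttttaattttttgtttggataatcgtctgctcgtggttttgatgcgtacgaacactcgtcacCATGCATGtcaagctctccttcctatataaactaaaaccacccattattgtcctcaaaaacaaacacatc
The OLEO1 stretch holds 2 G-boxes, beginning 95 and 61 bases before the start, and the nearer lies within GACACGTG, the abscisic acid response form of the G-box. SESA3 holds 2 overlapping RY elements, a G-box and the AC element ACCAACC, and PAP85 holds 1 RY element. SESA3 stood at 53.9 CPM in myb30 and 1.84 CPM in Col, and PAP85 at 20.3 CPM in myb30 and 0.282 CPM in Col.

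Over 300-base promoters around RefSeq starts, 250 bases before and 50 after, CATGCATG occurred in 6.90% of genes that rose at least 4-fold (18 of 261), in 3.42% of those that fell at least 4-fold and in 0.83% of all tested genes. With the starts of the deposited annotation, which lie a median of 61 bases from the RefSeq ones, the shares were 6.80% of the large rises, 1.59% of the large falls and 0.70% of all genes. The G-box occurred in 14.9% of the large rises and in 8.06% of all genes. The evening element AAAATATCT stood in 2.63% of genes that rose, 3.23% of genes that fell and 2.80% of all genes. The AC element ACCTACC stood in 1.41% of genes that rose, 1.45% of genes that fell and 1.40% of all genes. These are letter matches, given as a description.

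Breakdown of stored oil moved the same way as the oil body genes at much higher levels. Of 15 genes of peroxisomal fatty acid oxidation and the glyoxylate cycle, which turn seed oil into sugar, 12 rose and 1 fell, and the list summed to 9672 CPM in myb30 and 4349 CPM in Col. By the authors' deposited table, ICL, isocitrate lyase, stood at 4105 CPM in myb30 and 1315 CPM in Col (1.64 ± 0.16). MLS, malate synthase, stood at 743 CPM in myb30 and 197 CPM in Col (1.92 ± 0.13, an adjusted p of 1.85e-45), and the oxidation enzyme gene MFP2 at 605 CPM in myb30 and 214 CPM in Col. PCK1, which draws the carbon on to sugar, reached 1558 CPM in myb30, against 714 CPM in Col. The citrate synthase gene CSY3 and the malate dehydrogenase gene PMDH1 rose about as much as PCK1. Its second peroxisomal copy, PMDH2, was the exception and fell to 281 CPM in myb30, against 497 CPM in Col. The lipase SDP1, which starts oil breakdown, had 35.7 CPM in myb30 and 36.3 CPM in Col and did not pass, and neither did the fatty acid importer PXA1.

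**Figure D3:**
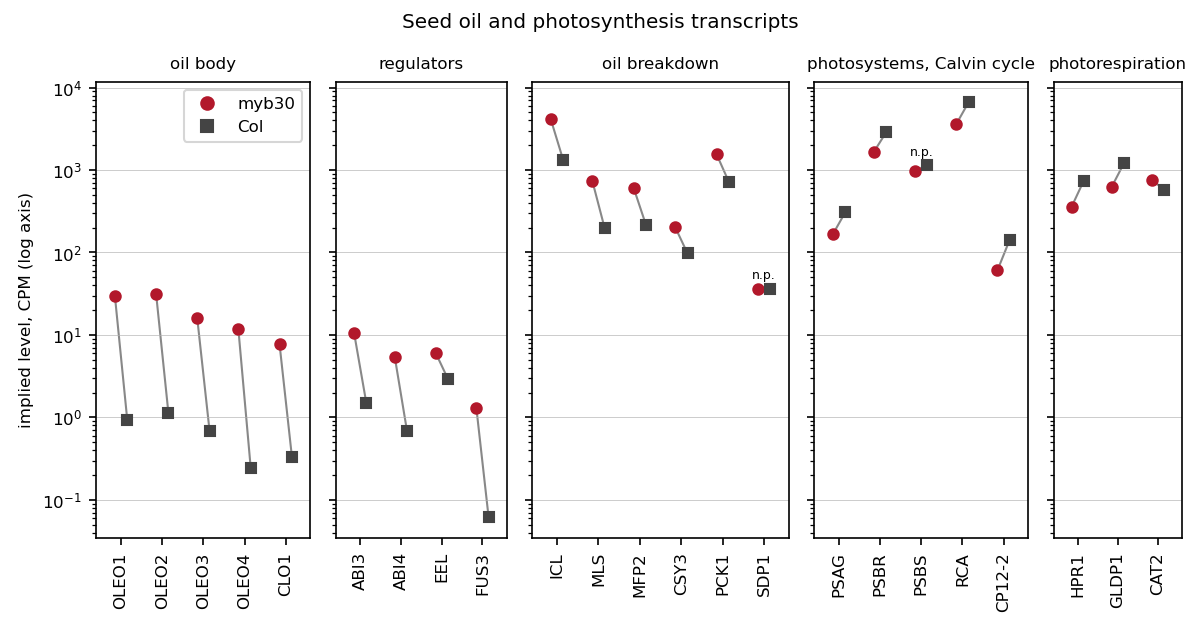
Implied CPM on a log axis for named genes, with myb30 as red circles left of Col as grey squares, joined by a line for each gene, and n.p. over genes that did not pass. Oil body, regulator and oil breakdown transcripts lie higher in myb30 except SDP1 (n.p.), and photosystem, Calvin cycle and photorespiration transcripts lie lower in myb30 except CAT2, with PSBS not passing.

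Photosynthesis transcripts were lower by a similar modest factor throughout. All 12 nuclear genes tested for subunits of photosystem I fell, as did 10 of 11 for photosystem II and 9 of 10 for electron carriers and the ATP synthase, with median log2 fold changes of -0.66, -0.66 and -0.61. Many of these genes lie in the level bins where 25.1% to 53.2% of all genes were lower. By the authors' deposited table, the photosystem I subunit PSAG stood at 166 CPM in myb30 and 306 CPM in Col. PSBR, of photosystem II, stood at 1670.3 CPM in myb30 and 2886 CPM in Col. PSBO1 and PSBO2, which stabilise the water-splitting cluster, fell as well (PSBO2 465 CPM in myb30 and 777 CPM in Col). PSBS, needed for dissipating excess light, had 987 CPM in myb30 and 1151 CPM in Col and did not pass, and neither did ferredoxin FD1. FNR1 and FNR2, which pass electrons to NADP, fell with log2 changes of -0.74 ± 0.11 and -0.69 ± 0.11.

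Most of the photosystem II genes had a promoter feature that was not used to choose them. The G-box CACGTG occurred in 63.6% of their RefSeq promoters (7 of 11), against 8.06% of all tested genes, and its longer forms CACGTGTC or GACACGTG in the same number, against 2.62% of all genes. With deposited starts the G-box stood in 8 of 11. Photosystem I genes had it in 4 of 12. The stretch before PSBR (chr1:29735766-29736015, plus strand), the member with the largest fall, shows it in the longer form, with its first base 55 bases before the start. Capitals again mark the matches.
PSBR: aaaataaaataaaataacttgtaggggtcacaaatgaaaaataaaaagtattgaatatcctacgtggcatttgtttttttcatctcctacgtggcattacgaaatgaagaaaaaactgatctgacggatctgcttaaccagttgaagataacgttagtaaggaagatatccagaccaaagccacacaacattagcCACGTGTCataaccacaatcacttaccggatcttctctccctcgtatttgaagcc
Among all genes that fell, 10.5% had the G-box around RefSeq starts. Whether the G-box relates to the changes was not tested.

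Carbon fixation followed the light reactions. All 15 Calvin cycle genes fell, with a median of -0.78. From the authors' deposited table, CP12-2, a small linker that switches the cycle off in the dark, showed the largest change with 60.8 CPM in myb30 and 143 CPM in Col (-1.24 ± 0.13, an adjusted p of 6.32e-20). RCA, which keeps Rubisco active, stood at 3608 CPM in myb30 and 6643 CPM in Col. PRK and the 3 glyceraldehyde phosphate dehydrogenase genes GAPA1, GAPA2 and GAPB fell by similar factors. In photorespiration, which salvages the side product of Rubisco, 13 of 14 genes fell. HPR1, the peroxisomal hydroxypyruvate reductase, stood at 359 CPM in myb30 and 739 CPM in Col, and GLDP1, of the mitochondrial glycine cleavage complex, at 627 CPM in myb30 and 1201 CPM in Col. CAT2, the leaf catalase that also serves oil-burning peroxisomes, was the exception and rose to 764 CPM in myb30, against 577 CPM in Col.

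Of 10 chloroplast development factors 4 fell and 1 rose, with a median of -0.17. The sigma factors SIG1, SIG2, SIG3 and SIG4, which direct plastid transcription, fell by log2 changes between -0.34 and -0.50. GNL, a GATA factor that promotes greening, rose to 11.9 CPM in myb30, against 7.21 CPM in Col. The master regulators GLK1 (44.0 CPM in myb30 and 43.2 CPM in Col) and GLK2 did not pass. Of 11 plastid ribosomal protein genes, 8 fell and RPL3P alone rose, with a median of -0.32.

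Starvation markers for several minerals fell. Of 12 genes of sulphur deficiency, 10 fell and none rose, with a median of -1.09. From the authors' deposited table, the sulphate-reducing enzymes APR3 and APR2 stood at 63.1 and 34.2 CPM in myb30, against 145 and 74.0 CPM in Col. LSU2, a marker of low sulphur, stood at 5.43 CPM in myb30 and 15.8 CPM in Col, and the transporter SULTR2;1 at 6.30 CPM in myb30 and 15.8 CPM in Col. The root uptake transporters SULTR1;2 (33.4 CPM in myb30 and 35.6 CPM in Col) and SULTR1;1 did not pass.

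Of 19 genes of phosphate starvation and its regulation, 10 fell and 1 rose, with a median of -0.68. The 10 include the regulator PHO2 (-0.75), so they are not all starvation markers. The galactolipid synthases MGD2 and MGD3 and the phosphodiesterase GDPD1, which help to replace phospholipids, fell most. MGD2 stood at 2.75 CPM in myb30 and 9.99 CPM in Col (-1.86 ± 0.19, an adjusted p of 1.16e-20), and GDPD1 at 9.13 CPM in myb30 and 25.8 CPM in Col. SPX1, a sensor of phosphate status, and SQD2, a sulpholipid synthase, fell too. The uptake transporter PHT1;1 rose to 26.7 CPM in myb30, against 17.5 CPM in Col, and PHR1, the master regulator of the response, did not pass (39.98 CPM in myb30 and 44.4 CPM in Col).

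Copper genes split in the authors' deposited table. Uptake genes fell: the copper reductase FRO5 stood at 0.281 CPM in myb30 and 1.70 CPM in Col, and the transporter COPT2 at 1.16 CPM in myb30 and 3.65 CPM in Col. Copper-using enzymes rose: the superoxide dismutases CSD1 and CSD2 reached 163 and 93.6 CPM in myb30, against 41.7 and 38.04 CPM in Col, and their copper chaperone CCS rose as well. FSD1, the iron-containing dismutase that replaces them when copper is short, did not pass, with 1143 CPM in myb30 and 1242 CPM in Col.

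Iron uptake genes gave several of the largest falls of the comparison. The bHLH factor genes BHLH100, BHLH101, bHLH38 and bHLH39, which switch on iron uptake, fell with log2 changes of -4.97, -4.11, -3.33 and -3.07, BHLH100 to 0.214 CPM in myb30, against 6.79 CPM in Col. IRT1, the root iron transporter gene, fell to 0.362 CPM in myb30, against 3.501 CPM in Col. Of 28 other iron genes, 7 fell and 6 rose. Among those that fell, the phloem transporter OPT3 stood at 74.1 CPM in myb30 and 167 CPM in Col, and the sensor BTS at 53.2 CPM in myb30 and 112 CPM in Col. The bHLH factor PYE and the short loci AT1G47395, AT2G30766 and AT1G47400 fell too, AT1G47395 to 1.33 CPM in myb30, against 8.20 CPM in Col. Those that rose included iron storage: ferritin FER1 reached 274 CPM in myb30, against 146 CPM in Col, and FER2 and the vacuolar exporter NRAMP3 rose too. FER3 (176 CPM in myb30 and 145 CPM in Col) did not pass. In nitrate assimilation 5 of 19 genes fell and 1 rose. The nitrate reductase genes NIA2 and NIA1 stood at 698 and 472 CPM in myb30, against 1101 and 711 CPM in Col, and the plastid glutamine synthetase GLN2 at 1539 CPM in myb30 and 2394 CPM in Col. Nitrite reductase NIR1 and the nitrate transporter NRT1.1 did not pass.

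**Figure D4:**
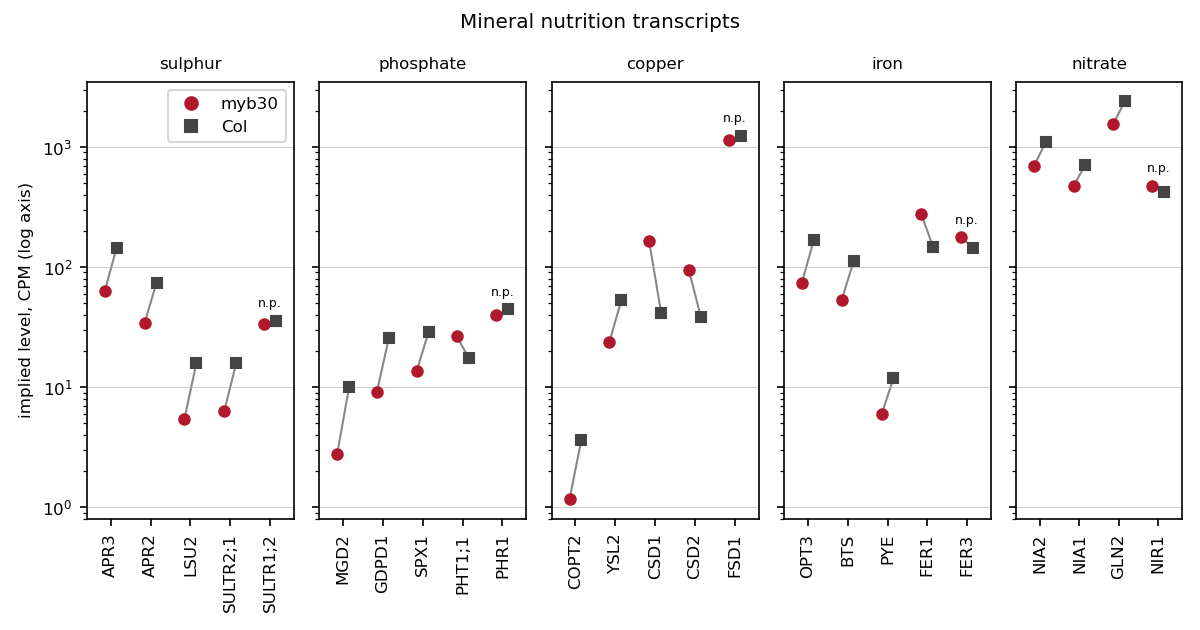
Implied CPM on a log axis for genes of 5 minerals, with myb30 as red circles left of Col as grey squares and n.p. over genes that did not pass. Of the genes that passed, those of nitrate, sulphur, copper uptake and iron sensing lie lower in myb30, as do MGD2, GDPD1 and SPX1, while PHT1;1, CSD1, CSD2 and FER1 lie higher in myb30.

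Surface and barrier lipid genes that passed mostly fell. Of 17 genes of suberin, the waxy barrier around the root's inner tissues, and of the endodermal barrier, 9 fell and 1 rose, with a median of -0.80. In the authors' deposited table the suberin exporter ABCG6 stood at 8.71 CPM in myb30 and 31.3 CPM in Col (-1.84 ± 0.18, an adjusted p of 3.54e-21), the acyltransferase GPAT5 at 2.62 CPM in myb30 and 9.13 CPM in Col, and the reductase FAR5 at 3.82 CPM in myb30 and 11.7 CPM in Col. CYP86B1, GPAT7 and MYB41, a transcription factor that switches suberin on, fell as well. FAR1, an alcohol-forming reductase of the same family as FAR5, rose to 44.1 CPM in myb30, against 26.8 CPM in Col. Genes of the Casparian strip, the other endodermal barrier, did not pass: CASP1 had 40.9 CPM in myb30 and 43.4 CPM in Col, and PER64 had 29.95 CPM in myb30 and 30.2 CPM in Col.

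The elongase genes that make very-long-chain fatty acids, the pathway MYB30 is best known for, changed in part. Of 21, 6 fell and 1 rose. KCS13 and KCS2 fell by larger log2 changes (-1.43 and -1.20) than KCS6, KCS9 and KCS20. KCS6, of wax synthesis, stood at 142 CPM in myb30 and 257 CPM in Col, KCS9 at 65.3 CPM in myb30 and 109 CPM in Col, and KCS20 at 92.8 CPM in myb30 and 147 CPM in Col. KCS10, the most abundant that did not pass, had 373 CPM in myb30 and 352 CPM in Col, and PAS2, a core subunit, had 196 CPM in myb30 and 206 CPM in Col. KCS18, which makes the long-chain acids of seed oil, was the rise. Of 19 cutin genes 5 fell, among them the acyltransferases GPAT8 and GPAT4, and DCR rose. GPAT8 stood at 35.2 CPM in myb30 and 62.4 CPM in Col.

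Lipid transfer protein genes went both ways. Of 12, 4 rose and 5 fell. LTP2 reached 2185 CPM in myb30, against 707 CPM in Col (1.63 ± 0.18), and EARLI1 174 CPM in myb30, against 77.4 CPM in Col, while LTP7 and LTP3 fell. EARLI1, AZI1 and AT4G12490 are near copies, so reads could have been shared among them. Of 19 general phenylpropanoid and lignin genes only PAL4, PAL2 and HCT fell and OMT1 rose. The MYB-bound AC element ACCAACC stood in the RefSeq promoters of 8 of the 19 (42.1%, against 3.42% of all tested genes). Whether this element relates to the changes was not tested. Of 6 genes in triterpene clusters 4 fell, including the marneral synthase MRN1, with 9.52 CPM in myb30 and 15.2 CPM in Col.

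Markers of root hairs rose. Of 11 root hair genes, 9 rose, with a median of 0.92. In the authors' deposited table the root hair wall protein PRP3 stood at 112 CPM in myb30 and 42.9 CPM in Col (1.38 ± 0.23, an adjusted p of 5.52e-08), the extensin-type LRX1 at 31.9 CPM in myb30 and 15.4 CPM in Col, and COW1, which keeps hairs growing at the tip, at 30.3 CPM in myb30 and 16.02 CPM in Col. RSL1 and RSL2, factors of hair growth, did not pass. Of 12 root tip and stele markers, 2 rose and 1 fell. WOX5, of the stem cell niche, stood at 3.61 CPM in myb30 and 2.21 CPM in Col, and the auxin exporter PIN2 at 55.02 CPM in myb30 and 39.7 CPM in Col. SCR had 38.3 CPM in myb30 and 39.6 CPM in Col and did not pass.

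Vascular and stomatal markers fell where they moved. Of 9 xylem genes 5 fell, with a median of -0.66, including the secondary-wall cellulose synthases CESA4, CESA7 and CESA8 (CESA4 10.9 CPM in myb30 and 18.1 CPM in Col) and the protease XCP2. Of 6 phloem genes 4 fell: SEOR1, a sieve element protein, stood at 10.8 CPM in myb30 and 32.8 CPM in Col (-1.60 ± 0.16, an adjusted p of 1.83e-21), and CALS7, a callose synthase of sieve plates, at 4.81 CPM in myb30 and 8.67 CPM in Col. Of 18 stomatal lineage genes 6 fell and none rose. FAMA, MUTE, FLP, MYB88 and TMM fell with log2 changes of -0.67, -0.62, -0.58, -0.52 and -0.37, and SCRM did not pass (68.6 CPM in myb30 and 70.0 CPM in Col). Of 7 shoot epidermis genes 3 fell, among them ATML1, with 116 CPM in myb30 and 145 CPM in Col.

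Of 12 shoot meristem and boundary genes, AN3 rose, CLV1 fell and the others, such as AS1 and KNAT1, did not pass. Of 10 trichome and hair patterning genes EGL3 rose and GL1, at 0.0873 CPM in myb30 and 0.398 CPM in Col, fell. Both lists were near the shares of all tested genes, of which 10.8% rose and 10.7% fell. Markers of shoot and of root were both detected in these libraries of whole seedlings.

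Wall-loosening genes rose more often than they fell. Of 18 xyloglucan-modifying enzyme genes 8 rose and 2 fell. XTH14 stood at 79.7 CPM in myb30 and 30.6 CPM in Col, XTH12 at 42.0 CPM in myb30 and 13.1 CPM in Col, and XTH31 at 303 CPM in myb30 and 147 CPM in Col, while XTH4, the most abundant that fell, had 560 CPM in myb30 and 812 CPM in Col. XTH12, XTH13 and XTH14 are close relatives, and reads could have been shared among them. Of 11 expansins EXPA2, EXPA10 and EXPA4 rose and EXPA8 fell. EXPA10 stood at 80.2 CPM in myb30 and 38.04 CPM in Col. None of 10 cellulose synthesis genes of growing walls passed in either direction: CESA1 had 444 CPM in myb30 and 455 CPM in Col, and CESA3 had 452 CPM in myb30 and 447 CPM in Col. Of 10 fasciclin-like arabinogalactan protein genes 6 fell, such as FLA9 with 181 CPM in myb30 and 277 CPM in Col.

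Of 25 aquaporins 10 fell and 4 rose. TIP2;1, a water channel of the vacuole membrane, stood at 369 CPM in myb30 and 657 CPM in Col, and PIP1;5 of the plasma membrane at 64.7 CPM in myb30 and 120 CPM in Col. The 2 seed-type channels were the largest rises: TIP3;1 reached 3.096 CPM in myb30, against 0.338 CPM in Col, and BETA-TIP 1.105 CPM in myb30, against 0.176 CPM in Col. PIP1;2 (1113 CPM in myb30 and 1351 CPM in Col) and PIP2;1 did not pass.

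**Figure D5:**
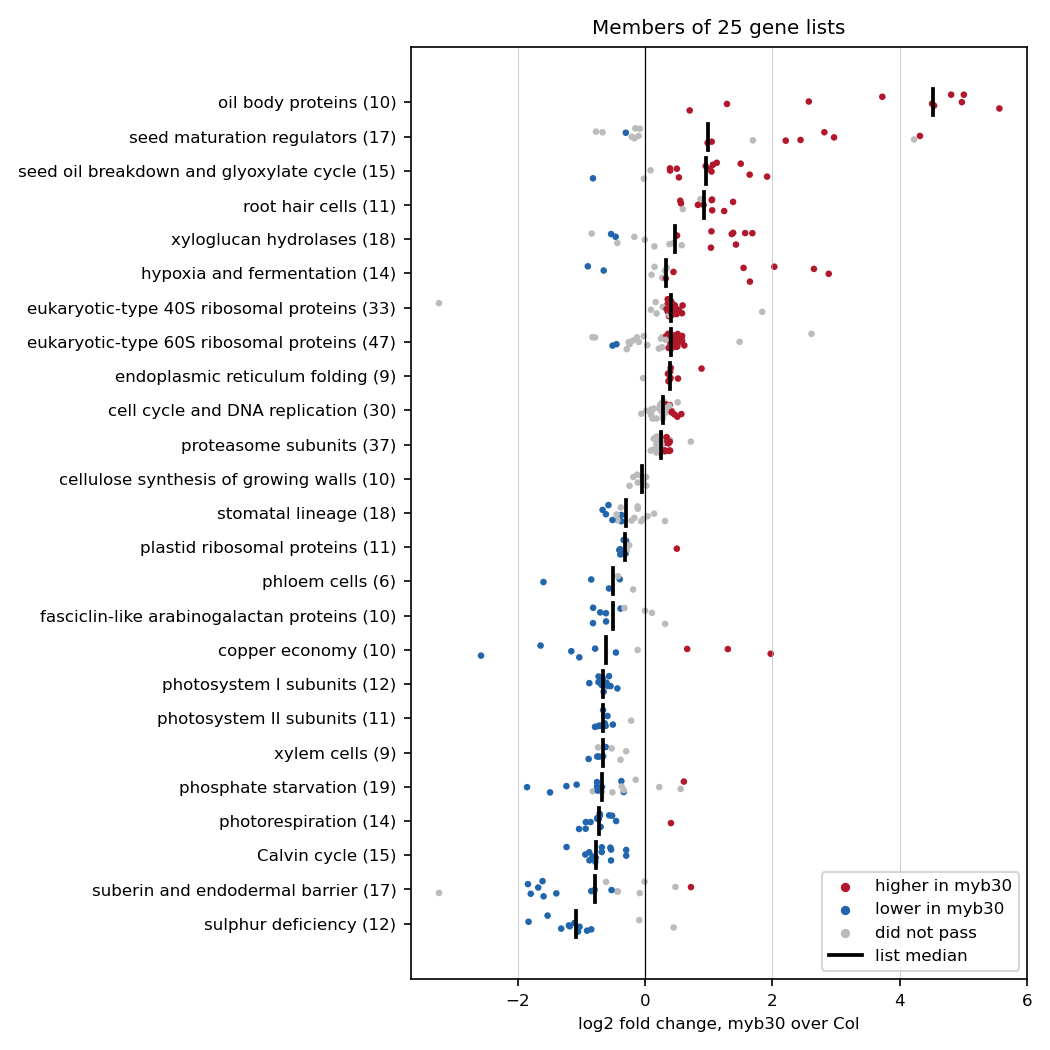
Each point is a tested member of a gene list, with its log2 fold change of myb30 over Col on the x axis and the number of members in brackets; red members were higher in myb30, blue were lower, grey did not pass, and a bar marks the list median. Oil body genes lie highest, with a median of 4.53, and sulphur deficiency genes lowest, with a median of -1.09.

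Genes of cytosolic ribosomes rose by small factors. Of 33 genes for proteins of the cytosolic 40S ribosome 25 rose and none fell, with a median of 0.41, and of 47 for the 60S ribosome 28 rose and 2 fell, with a median of 0.40. These lists summed to 10824 and 12044 CPM in myb30, against 8230 and 8924 CPM in Col. By the authors' deposited table, AT5G20290, a 40S protein gene, stood at 1439.9 CPM in myb30 and 1028 CPM in Col, and AT2G27710, of the 60S stalk, at 812 CPM in myb30 and 543 CPM in Col. Many such genes have near copies, which could have shared reads. They are also short, with median exon lengths of 800 and 729 bases, in the range where 15.6% to 22.6% of genes averaging 1 CPM or more rose. Of 37 proteasome genes 10 rose and none fell, with a median of 0.25, against 19.5% of all genes higher at 6 to 8 on the log2 CPM scale, where most of them lie. PAF1, of the core particle, was among those that rose, standing at 129 CPM in myb30 and 99.8 CPM in Col.

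Of 9 genes for folding in the endoplasmic reticulum, 8 rose, with a median of 0.39 and a median exon length of 2034 bases. Most of them lie between 8 and 10 on the log2 CPM scale, where 32.9% of all genes were higher. The chaperone genes BIP1 and BIP2, near copies of each other, stood at 413 and 463 CPM in myb30, against 316 and 351 CPM in Col. PDIL1-1, a disulphide isomerase, stood at 341 CPM in myb30 and 239 CPM in Col. BZIP60, a factor of the unfolded protein response, did not pass (29.2 CPM in myb30 and 29.9 CPM in Col). Of 30 cell cycle and DNA replication genes 7 rose and none fell: CDC6, which licenses replication, had 11.9 CPM in myb30 and 8.36 CPM in Col, and MCM2, of the replication helicase, had 38.7 CPM in myb30 and 29.7 CPM in Col. TSO2 and MCM7 did not pass.

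Fermentation genes of the low-oxygen response rose, whereas 2 of its transcription factor genes fell. Of 14 hypoxia genes 7 rose and 2 fell. From the authors' deposited table, ADH1, alcohol dehydrogenase, stood at 230 CPM in myb30 and 31.1 CPM in Col (2.88 ± 0.44, an adjusted p of 3.38e-09), PDC1, pyruvate decarboxylase, at 59.0 CPM in myb30 and 14.5 CPM in Col, and HB1, a haemoglobin, at 114 CPM in myb30 and 39.1 CPM in Col. The transcription factor gene HRE2 rose to 3.34 CPM in myb30, against 0.528 CPM in Col. LBD41 and HRA1 fell, LBD41 to 30.9 CPM in myb30, against 57.7 CPM in Col. PDC2 and PCO1 did not pass.

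Hormone lists held both rises and falls, beside 10.7% of all tested genes that fell and 10.8% that rose. Of 23 abscisic acid genes 7 fell and 3 rose. The synthesis genes NCED3 and ABA1 fell, with ABA1 at 120 CPM in myb30 and 179 CPM in Col. ABA2, AAO3 and NCED9, also of synthesis, did not pass. The catabolic genes CYP707A1 and CYP707A2 rose, with CYP707A1 at 28.3 CPM in myb30 and 17.7 CPM in Col. Their relatives CYP707A3 and CYP707A4 did not pass. Of 19 gibberellin genes GA3OX2 and GA3OX1, which make active gibberellin, rose, GA3OX2 to 8.36 CPM in myb30, against 2.59 CPM in Col. The repressor RGL2 rose too, the target GASA6 fell, and the other gibberellin genes did not pass. Of 21 ethylene genes ACO1 rose to 43.7 CPM in myb30, against 11.5 CPM in Col, and the receptor gene ETR2 rose. ACS2, ACS5, ACS6 and ACO4, also of ethylene synthesis, fell, and so did EBF1 (-0.44). Of 16 cytokinin genes 5 rose and 1 fell, including the synthesis gene IPT5 (6.38 CPM in myb30 and 3.01 CPM in Col) and the response regulator ARR7 (12.7 CPM in myb30 and 6.11 CPM in Col).

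Defence and rapid stress lists gave mixed counts, and most WRKY genes did not pass. Of 62 WRKY genes 6 fell and 1 rose, with a median of 0.00, while 10.7% of all tested genes fell and 10.8% rose. The falls of this list were thus near the share of all genes. WRKY40 stood at 1.46 CPM in myb30 and 3.32 CPM in Col. Of 11 rapidly induced stress factors 4 fell, among them ERF104 (5.33 CPM in myb30 and 11.3 CPM in Col), and MYB15 rose. Of 10 heat genes HSFA7A fell to 3.66 CPM in myb30, against 10.7 CPM in Col, and HSP90.1 rose. Of 11 cold genes GOLS3, KIN1 and KIN2 rose and the others, such as COR47, did not pass.

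Of 38 tau and phi glutathione S-transferase genes 7 rose and 4 fell, while 10.8% of all tested genes rose and 10.7% fell. The neighbours GSTF6 and GSTF7 stood at 207 and 121 CPM in myb30, against 69.5 and 48.7 CPM in Col. Of 13 further scavenging genes 6 rose and 2 fell: the plastid peroxidase gene SAPX rose to 260 CPM in myb30, against 172 CPM in Col, and its thylakoid partner TAPX fell to 71.2 CPM in myb30, against 137 CPM in Col. Among 15 genes of glucosinolate breakdown and of ER bodies, BGLU23, the main glucosidase of ER bodies, rose to 8965 CPM in myb30, against 6870 CPM in Col, and TGG2 and MVP1 rose while ESM1 fell.

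Of 12 senescence, dark and sugar-starvation genes 5 fell and 1 rose. By the authors' deposited table, ASN1, the dark-induced asparagine synthetase, stood at 4.26 CPM in myb30 and 15.2 CPM in Col (-1.84 ± 0.29), and DIN10 at 138 CPM in myb30 and 265 CPM in Col. SAG13, the rise, was near the detection floor at 0.196 CPM in myb30 and 0.0209 CPM in Col. Of 10 starch and sugar genes 4 rose and 3 fell. The sugar-induced GPT2, a plastid glucose phosphate transporter, reached 38.5 CPM in myb30, against 6.11 CPM in Col (2.66 ± 0.20), and APL3, of starch synthesis, 57.6 CPM in myb30, against 21.8 CPM in Col. The beta-amylase gene BAM3 fell to 25.5 CPM in myb30, against 76.3 CPM in Col, while BAM5, another beta-amylase gene, rose at a low level. The sugar transporter gene SWEET11 fell to 49.1 CPM in myb30, against 84.6 CPM in Col, and STP1 fell as well.

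Of 17 B-box genes BBX14, BBX15 and COL3 fell and BBX30 rose, of 13 flowering genes TEM1 and SVP fell, and of 15 tubulins TUB8 and TUA1 fell and TUB3 rose. Over all tested genes 10.7% fell and 10.8% rose. BBX14 stood at 70.4 CPM in myb30 and 134 CPM in Col, and TUB8 at 38.4 CPM in myb30 and 72.2 CPM in Col. BBX21 and BBX24, which act in light signalling, did not pass.

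Some genes were read in only 1 genotype. Among genes of the authors' deposited table, 52 that rose had no implied read in Col and 32 that fell had none in myb30. The seed elongase KCS18 had about 197 implied reads in myb30 over its 3 libraries and none in Col, at least 65.7-fold higher against a floor of 3 reads over the genotype, and BAM5, a beta-amylase, was at least 15.5-fold higher on the same floor. In the other direction ARF20, an auxin response factor, had no implied read in myb30 and 52.3 in Col, at least 17.44-fold lower. The microtubule-associated MAP65-9 was at least 8.72-fold lower and CYP82C4, a hydroxylase of iron-mobilising coumarins, at least 8.39-fold lower.

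Beside the iron genes, the largest falls of genes averaging 1 CPM or more included LBD26, of the LOB-domain family, with 0.211 CPM in myb30 and 3.99 CPM in Col, AT1G13609, annotated as defensin-like, with 0.603 CPM in myb30 and 10.3 CPM in Col, and the bHLH-family gene AT5G51790 (-3.36). Among the smaller of the 20 largest falls, BT1, a BTB and TAZ domain protein, stood at 7.28 CPM in myb30 and 52.4 CPM in Col. Both loci annotated as TPS-CIN, a terpene synthase that makes cineole, fell, to 2.43 and 2.55 CPM in myb30, against 16.4 and 16.2 CPM in Col. These 2 lie close together, at chr3:9447508-9450420 and chr3:9439246-9442507, and are near copies. AT5G46900 and AT5G46890, adjacent genes for lipid-transfer-like proteins, fell to 4.05 and 3.27 CPM in myb30, against 30.6 and 24.1 CPM in Col.

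Changed genes were spread over the genome. Between 21.8% and 23.6% of tested genes passed on each of the 5 chromosomes, and over 111 windows of 1 Mb with at least 50 tested genes the share ran between 8.89% and 32.1%, with a median of 22.6%. The window that holds MYB30, at 10 to 11 Mb of chromosome 3, had 19.5% of its 169 genes past the threshold.

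The authors' deposited table of myb30 against MYB30-OE tested the difference between mutant and overexpressor directly. It called 16.2% of 25647 genes higher and 15.4% lower in myb30. It shares the myb30 libraries with the comparison to Col, so values are given side by side and not as independent support. Photosynthesis lists were lower in myb30 in both tables: 12 of 12 photosystem I and 14 of 15 Calvin cycle genes were lower in myb30 than in MYB30-OE. Of the oil breakdown genes 12 of 15 were higher in myb30 than in MYB30-OE. Suberin genes were lower in 12 of 17. Of the root hair genes 4 of 11 were higher in myb30 than in MYB30-OE, with a median of 0.36 in that table and 0.92 over Col.

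A few genes differed strongly from Col but were not called between the 2 altered lines, which does not show that the lines are alike. CAM8, a calmodulin, stood at 98.7 CPM in myb30 and 5.68 CPM in Col, while its log2 fold change of myb30 over MYB30-OE was -0.22. AT1G24610, annotated as a Rubisco methyltransferase family protein, stood at 37.1 CPM in myb30 and 5.75 CPM in Col, with -0.03 over MYB30-OE, and AT3G25150, with an RNA-binding motif, at 10.9 CPM in myb30 and 59.5 CPM in Col, with -0.33 over MYB30-OE. The oil body genes lay between: 8 of 10 were also higher in myb30 than in MYB30-OE, with a median log2 fold change of 2.19 in that table, against 4.53 over Col. OLEO1 and OLEO2 were also higher in MYB30-OE than in Col, with log2 fold changes of 2.64 and 2.76.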

How the data were processed

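Total RNA of whole 4-day seedlings was sequenced in 3 libraries per genotype. TopHat, Cufflinks, Cuffdiff and the TAIR10 build are named per the submitters' processing notes, without versions. The authors' deposited tables hold 3 columns used here: log2 fold change, mean level as log2 CPM, and p-value before adjustment. The test behind the p-value, the strand setting and the counting of shared reads are not given in the sources used here, so overlapping, antisense and near-identical genes are uncertain.

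P-values were adjusted by Benjamini-Hochberg over the 25713 genes above the floor of -4.14 of the average log2 CPM column. Implied CPM were solved from fold change and average, assuming 2 reads added for the average and 0.125 for the fold change over 3 libraries a genotype, and are approximate. The approximate SE is the log2 fold change over the normal quantile of its p. They cover no error beyond that of the deposited test. Calculations used python 3.11.15, numpy 2.4.6, pandas 2.3.3 and scipy 1.17.1. The code was run on simulated data built with the same assumed added reads. That run cannot check the assumption, the implied CPM or the approximate SE of the deposited values.

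The members, the 58 gene lists (963 entries) and the rules were chosen with earlier results of these data known, and the 7 lists built from gene descriptions were rewritten after the tables were read. Lists were described by counts and medians. Of each list the text names a part of the members that passed and a few that did not. The members named are not always those with the largest fold change. Single exceptions to a list's direction, and further list members in the text or the plots, were picked after seeing their values. Genes outside lists were drawn from MYB30, the 20 largest rises, the 20 largest falls and the 10 smallest p-values. Others were the 10 highest levels per direction and those without reads in 1 genotype. The largest rises and falls were taken among genes averaging 1 CPM or more with at least 1 implied read in each genotype. The text names a part of all these genes, chosen after their values were seen.

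Positions come from the deposited annotation. Promoter letters are from the RefSeq TAIR10.1 genome, in which 99.96% of 35176 coding transcripts of the deposited annotation began with ATG. Motifs searched on both strands were the RY element CATGCATG, the G-box CACGTG, the evening element AAAATATCT, the AC elements ACCTACC and ACCAACC, and the abscisic acid form of the G-box, CACGTGTC or GACACGTG, which overlaps the G-box. Alternatives were other thresholds, level filters, centring, a pseudocount and gene starts.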

Additional observations from a re-analysis of the deposited data

How the results depend on the processing

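At an adjusted p under 0.01, 3561 genes passed (1717 higher in myb30, 1844 lower). Under Bonferroni 1306 passed, 567 higher and 739 lower, so that 43.4% of calls were higher, against 50.1% with Benjamini-Hochberg. Of changes of at least 2-fold, Bonferroni left 625 (337 higher, 288 lower), re-adjusting over genes averaging 1 CPM or more left 783 (413 higher, 370 lower), and adding 1 CPM to each implied level left 479 (277 higher, 202 lower). A fold limit of 1.5 in place of 2 gave 2923 (1368 higher, 1555 lower). These settings are stricter or looser by construction. Testing all rows (5108 calls) and testing only genes averaging 1 CPM or more (5222) stayed within 1.5 times the main count of 5536. Centring on the median leaves the p-values unchanged, so its count of 5536 was fixed beforehand.

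Adding 1 CPM to both levels cannot change the sign of a single gene, so it was no check of signs. The median of the seed maturation regulators did change sign, being -0.10 over members averaging 1 CPM or more and 0.98 over all, and the medians of the WRKY, iron, starch and sugar, and trichome lists, all near 0, changed sign under at least 1 setting. At the 1.5-fold limit 46.8% of calls were higher, against 54.0% at 2-fold. Of 73 genes named outside or across lists, 13 missed Bonferroni. Of the 58 list medians, 3 moved by more than their spread when members averaging under 1 CPM were dropped and 5 when 1 CPM was added, among them the seed maturation regulators and the oil body genes (3.02 with 1 CPM added).

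No paired analysis was possible because the tables hold no values of single libraries. Leaving out each library in turn was not run for the same lack of values, and whether a library stands apart is not known here. Levels are implied, and low genes are the least precise.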
